A study of Mus musculus with 6 samples.

Results

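Nerve terminals release transmitter from synaptic vesicles, and the 36 genes described here encode the proteins that store, dock, prime and fuse those vesicles. They were taken by name from the 50559 genes of a count table of mouse hypothalamus, and all 36 were found and had enough counts to be tested. The table holds 6 libraries of total RNA in 2 groups, 3 from wild-type mice and 3 from mice in which the gene for SRC-1 was deleted. This gene is Ncoa1, and its product, steroid receptor coactivator 1, helps nuclear receptors to activate transcription. Strain, sex, age, treatment and the extent of the deletion are not stated in the labels. Nothing in the labels says that replicates are separate animals, so a p-value here measures only how these samples vary, and that variation may be technical.

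Fusion is driven by SNARE proteins, which form a bundle that pulls the vesicle membrane (VAMP, also called synaptobrevin) and the plasma membrane (syntaxin and SNAP-25) together. Synaptotagmins sense the calcium that enters with an action potential, complexins clamp and then assist the SNARE bundle, and NSF with its SNAP adaptors takes the bundle apart for another round. RIM, bassoon, piccolo and Munc13 proteins of the active zone hold vesicles at the release site and prime them. In the hypothalamus the same machinery serves fast transmission between neurons and shares several parts with the release of peptides from dense-core vesicles.

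Totals ran from 36613507 to 46755553 counts per library, and 20257 genes were tested. Levels below are CPM, read-pair counts scaled to a common library size and corrected for library composition by TMM, and fold changes are knockout against wild type on the log2 scale. Ncoa1, whose level checks the labels, stood at 127, 122 and 130.1 CPM in wild type and 40.3, 37.2 and 38.7 CPM in the knockout, a log2 fold change of -1.71 ± 0.065 (SE). Its adjusted p by the quasi-likelihood test of edgeR was 1.87e-06. A call below means an adjusted p under 0.05 in that test, with Benjamini-Hochberg adjustment over all genes tested.

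The promoters of the 5 genes with the lowest p among the 36 are shown because the comparison below turns on these genes. Each is the 250 bases upstream of the gene's GENCODE canonical start, read 5′ to 3′ on the gene's strand in GRCm39. Capitals mark matches on either strand to 1 of 5 motifs searched for: the GC box GGGCGG, the nuclear receptor half-site AGGTCA, its extended form TCAAGGTCA, the cAMP response element TGACGTCA, and the TATA box TATAAA. The extended form contains the half-site. GENCODE starts can differ from the outermost RefSeq starts of the counted genes. For Vamp1, Snap25, Syt7 and Cplx1 the window ends 204, 143, 109 and 6 bases before the counted gene, and for Syt2 it ends 18 bases inside it. The windows lie at chr6:125192090-125192339 (plus strand) for Vamp1, chr19:10365783-10366032 (plus) for Syt7, chr1:134574040-134574289 (plus) for Syt2, chr2:136554966-136555215 (plus) for Snap25 and chr5:108697900-108698149 (minus) for Cplx1.
Vamp1: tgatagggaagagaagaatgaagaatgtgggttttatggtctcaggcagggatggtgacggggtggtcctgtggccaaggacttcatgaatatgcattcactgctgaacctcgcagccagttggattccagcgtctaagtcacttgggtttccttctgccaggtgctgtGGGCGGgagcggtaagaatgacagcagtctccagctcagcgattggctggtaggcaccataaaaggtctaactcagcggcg
Syt7: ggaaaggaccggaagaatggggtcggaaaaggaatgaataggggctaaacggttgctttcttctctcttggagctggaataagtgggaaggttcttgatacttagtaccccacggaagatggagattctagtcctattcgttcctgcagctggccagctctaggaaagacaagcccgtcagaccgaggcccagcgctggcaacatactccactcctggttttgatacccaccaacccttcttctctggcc
Syt2: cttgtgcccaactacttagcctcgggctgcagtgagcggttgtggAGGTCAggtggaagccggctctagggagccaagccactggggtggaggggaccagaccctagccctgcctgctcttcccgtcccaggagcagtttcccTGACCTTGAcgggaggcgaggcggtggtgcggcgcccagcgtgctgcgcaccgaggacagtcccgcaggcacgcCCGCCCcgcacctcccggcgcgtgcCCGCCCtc
Snap25: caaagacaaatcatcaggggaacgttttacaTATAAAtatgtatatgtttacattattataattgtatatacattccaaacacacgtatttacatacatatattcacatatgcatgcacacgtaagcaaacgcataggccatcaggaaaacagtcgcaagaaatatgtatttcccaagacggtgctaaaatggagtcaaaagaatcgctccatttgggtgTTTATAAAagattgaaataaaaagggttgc
Cplx1: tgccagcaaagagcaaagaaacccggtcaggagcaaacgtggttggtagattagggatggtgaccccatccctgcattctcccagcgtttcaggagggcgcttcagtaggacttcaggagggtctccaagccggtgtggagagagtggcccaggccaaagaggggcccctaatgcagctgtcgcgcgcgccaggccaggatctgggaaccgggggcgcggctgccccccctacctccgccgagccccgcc

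Syt2 held 2 GC boxes and 2 half-sites, 1 of which was part of the extended form. Vamp1 held 1 GC box, Snap25 held 3 matches to the TATA box, of which 2 overlap, and Syt7 and Cplx1 held no match to any of the 5 motifs. GC content was 70.4% in the Syt2 window and 33.2% in the Snap25 window, the lowest of the 36, against a median of 56.2% over the 36. The median over the 21770 windows of protein-coding genes was 53.2%.

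Among all 36 genes, 19 windows (52.8%) held a GC box, against 36.3% of the 21770 windows. The half-site was in 4 (11.1%), those of Syp, Syngr3, Syt2 and Cplx3, against 13.1% of all windows. The extended form was in 1 of 36, that of Syt2, and in 0.432% of all windows. The TATA box was in 3 (8.33%), those of Snap25, Rab3b and Unc13a, against 11.9%. The cAMP response element was in 0 of 36 and in 1.695% of all windows. For 16 of the 36 genes the window ends inside the counted gene, for 8 of them by over 250 bases. These are matches of letters, and no binding was measured.

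The 36 genes spanned a wide range of levels in wild type, and the SNARE genes were spread over much of it. Per kilobase of exonic length, which allows genes to be compared, Snap25 stood at 433 ± 32.6 CPM per kb (SD, n = 3) and Syp at 419 ± 37.6, a difference within their spread. Vamp2 followed at 354 ± 22.8, Rab3a at 275 ± 19.7, Nsf at 216 ± 14.3 and Sv2a at 178 ± 14.8 CPM per kb, each apart from its neighbour by more than the SD of either. Syt11 at 152 ± 10.7 and Syt1 at 142 ± 10.8 CPM per kb were again within their spread of each other. So were the next genes in the order, Syn1 at 111 ± 4.87, Cplx1 at 110.3 ± 10.5, Syngr1 at 105 ± 9.68 and Syngr3 at 104 ± 9.08 CPM per kb. The SNARE genes Vamp1 and Stx1a were lower, at 66.7 ± 7.81 and 15.6 ± 1.78 CPM per kb. At the low end, Unc13b stood at 2.01 ± 0.255, Cplx3 at 0.602 ± 0.198 and Syn3 at 0.519 ± 0.0425 CPM per kb. The Syn3 value is low partly through its divisor, since the annotation gives Syn3 72060 exonic bases.

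**Figure D1:**
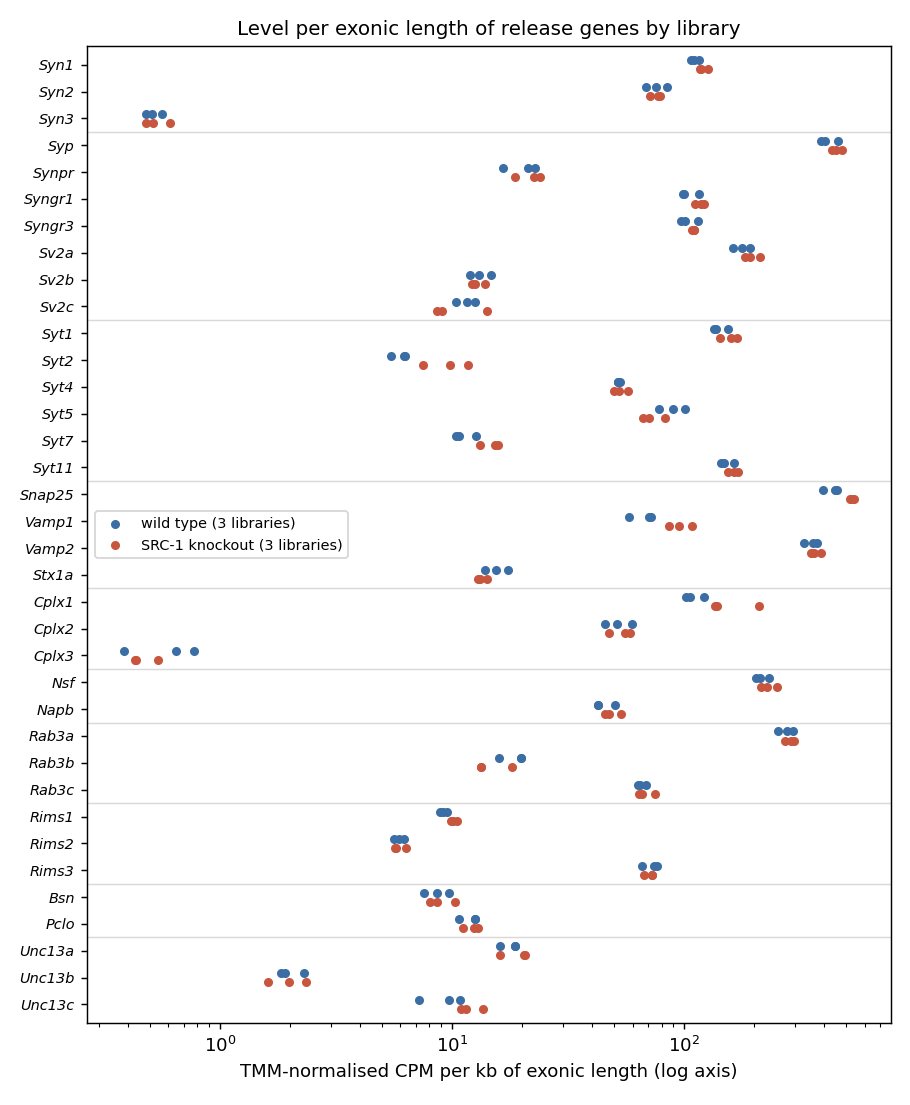
Level of each of the 36 genes in each library, as TMM-normalised CPM per kb of exonic length on a log axis, with 1 point per library (blue, wild type; red, SRC-1 knockout) and genes grouped by role. Snap25 and Syp lie at the right and Syn3 and Cplx3 at the left, and for most genes the points of the 2 groups overlap.

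None of the 36 genes passed the adjusted threshold in either direction. Over all genes tested, 0.242% were called higher and 0.592% lower in the knockout. At an unadjusted p under 0.05, 7 of the 36 were higher (Vamp1, Syt7, Syt2, Snap25, Cplx1, Rims1 and Unc13c) and 2 were lower (Syt5 and Stx1a), where 5.75% and 7.21% of all genes were. All 3 knockout libraries stood above all 3 wild-type libraries for 8 of the 36, or 22.2%, namely those 7 and Syn1, against 8.58% of all genes. The reverse held for 0 of the 36, against 9.03% of all genes.

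Log2 fold changes were positive for 27 of the 36, or 75.0%, and for 51.1% of all genes tested. With library totals in place of TMM, 24 of the 36 were positive. The median over the 36 was 0.068, against 0.004 for all genes. By library, the median log2 deviation of the 36 from the wild-type mean was -0.003, -0.081 and 0.073 in wild-type replicates 1 to 3. It was 0.170, 0.005 and 0.094 in knockout replicates 1 to 3, so the groups overlapped. The SD of such a median over libraries, taken against each group's own mean and pooled, was 0.070. In bulk tissue, a change in the number of cells of a type and a change in RNA per cell cannot be told apart.

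Other ways of testing called a few of these genes. DESeq2 called Vamp1, Syt2, Syt7 and Snap25 higher and 0 lower, where it called 1.54% of all genes it tested higher and 2.81% lower. The voom form of limma with sample quality weights called Vamp1, Syt2 and Syt7, where it called 0.666% higher, and limma-voom without weights called 0 of the 36, with 10 at an unadjusted p under 0.05 in either direction, against 13.2% of all genes. Without a filter on low counts edgeR called Vamp1 and Syt7 higher and Syt5 lower, against 0.959% and 1.69% of all genes. Without knockout replicate 3 it called Vamp1 and Syt2 higher, against 0.592% of all genes.

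**Figure D2:**
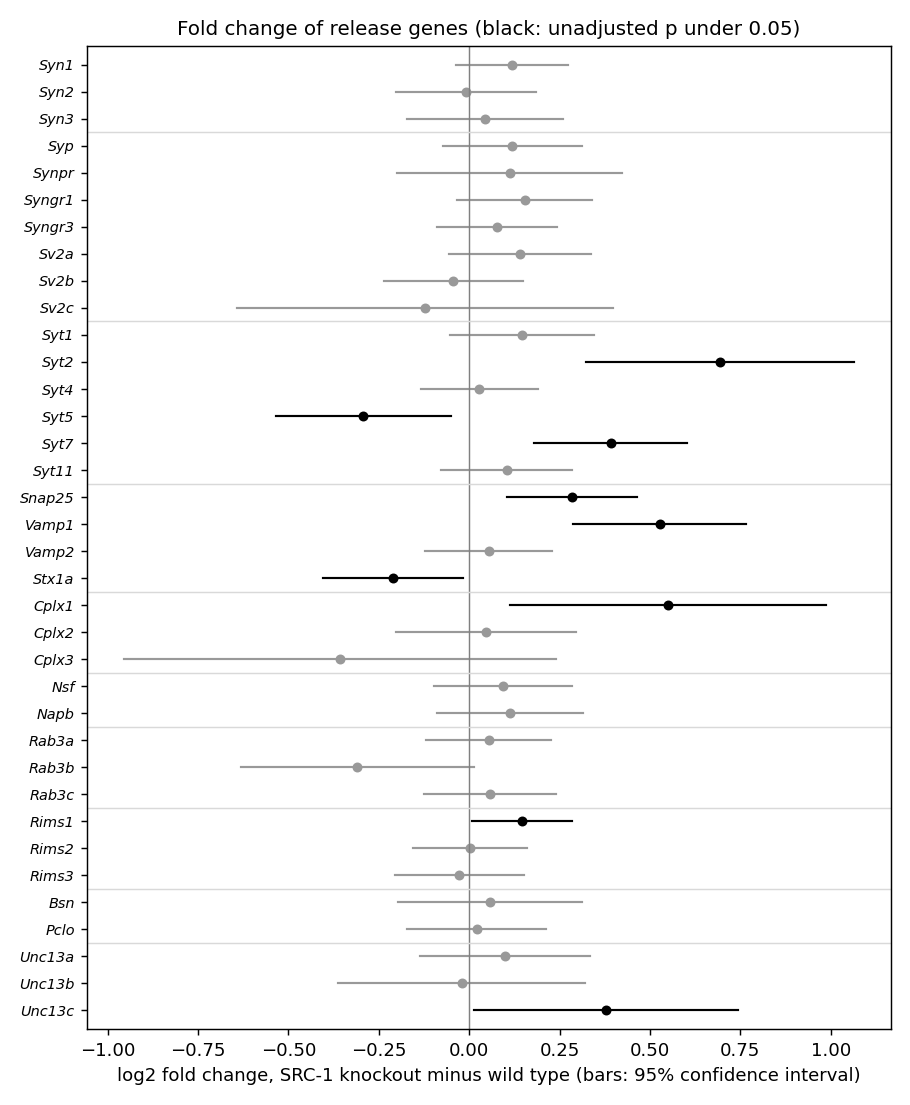
Log2 fold change (knockout minus wild type) of each of the 36 genes from edgeR's quasi-likelihood fit, with bars for the 95% confidence interval and genes grouped by role. The 9 genes in black have an unadjusted p under 0.05, 7 to the right of 0 and 2 to the left, and none passed after adjustment over all genes.

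The SNARE genes contained the gene with the lowest p of the 36. Vamp1 encodes synaptobrevin-1, the form of the vesicle SNARE known for its use at the neuromuscular junction and in fast-firing neurons of the brainstem and spinal cord. Vamp1 (chr6:125192544-125199269, plus strand) stood at 182, 227 and 223 CPM in wild-type replicates 1 to 3 and 339.7, 299 and 271 CPM in knockout replicates 1 to 3. Each knockout library was above each wild-type library, and knockout replicate 1 was the highest. The mean was 1.44-fold that of wild type, with a log2 fold change of 0.53 ± 0.107 (SE), a 95% confidence interval of 0.29 to 0.77 and an adjusted p of 0.0564 (edgeR).

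Snap25 (chr2:136555359-136624348, plus strand), the plasma-membrane SNARE that several botulinum toxins cut, stood at 1040.0, 1177 and 1198 CPM in wild type and 1418, 1365 and 1372 CPM in the knockout. The groups did not overlap, and the 3 knockout libraries lay closer together than the wild-type ones. Its log2 fold change was 0.28 ± 0.081 (SE) with a 95% confidence interval of 0.10 to 0.46 and an adjusted p of 0.15 in edgeR. Stx1a (chr5:135051473-135079954, plus strand) encodes syntaxin-1A, the partner of SNAP-25 at the plasma membrane, and stood at 59.6, 47.4 and 53.3 CPM in wild type and 44.6, 48.7 and 45.3 CPM in the knockout. Wild-type replicate 2 fell inside the knockout range, so the groups overlapped. The log2 fold change of Stx1a was -0.21 ± 0.088 (SE), at an adjusted p of 0.338 in edgeR. It was -0.13 without wild-type replicate 1 and -0.11 without the first library of each group.

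Vamp2, the main synaptobrevin of the forebrain, stood at 776, 713 and 810.3 CPM in wild type and 787, 761 and 839.7 CPM in the knockout, with overlapping groups. Its log2 fold change of 0.05 had a 95% confidence interval of -0.12 to 0.23. The 2 synaptobrevins were also compared within each library, as the ratio of their counts, which no scaling between libraries can change. Vamp1 to Vamp2 was 0.235, 0.318 and 0.275 in the wild-type libraries and 0.432, 0.393 and 0.322 in those of the knockout. The lowest knockout ratio stood just above the highest wild-type ratio, and the mean log2 ratio was higher by 0.47 in the knockout.

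Log2 fold changes of the 6 synaptotagmins ran from -0.29 to 0.69. Syt1 and Syt2 encode the fast calcium sensors of synchronous release, with Syt1 prevailing in the forebrain and Syt2 in the hindbrain and spinal cord. Syt2 (chr1:134574272-134680887, plus strand) stood at 50.1, 57.1 and 57.8 CPM in wild-type replicates 1 to 3 and 108, 89.8 and 69.1 CPM in knockout replicates 1 to 3. The groups did not overlap, and the knockout libraries were spread more widely (coefficient of variation 21.8%) than the wild-type ones (7.75%). The mean was 1.62-fold that of wild type, and the log2 fold change of 0.69 ± 0.157 (SE) was the largest of the 36, with a 95% confidence interval of 0.32 to 1.06 and an adjusted p of 0.113 in edgeR. Syt1 stood at 840.4, 731 and 749 CPM in wild type and 869.8, 777 and 921 CPM in the knockout, and its groups overlapped. The log2 fold change of Syt1 was 0.15 ± 0.09 (SE), at an adjusted p of 0.568 in edgeR.

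Syt7 (chr19:10366142-10430545, plus strand) encodes a high-affinity sensor linked to asynchronous release and to vesicle refilling, and stood at 124, 146 and 119.5 CPM in wild type and 182, 177 and 152 CPM in the knockout. Its knockout libraries were all above its wild-type libraries. The log2 fold change was 0.39 ± 0.095 (SE), with a 95% confidence interval of 0.18 to 0.60 and an adjusted p of 0.0911 in edgeR. Syt5 (chr7:4542764-4550540, minus strand), another calcium-binding synaptotagmin of secretory vesicles, was among the lower genes, at 161, 139.9 and 181 CPM in wild type and 119.7, 127 and 148 CPM in the knockout. Knockout replicate 3 lay above wild-type replicate 2, so the groups overlapped. The log2 fold change of Syt5 was -0.29 ± 0.108 (SE), at an adjusted p of 0.283 in edgeR.

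Syt4 and Syt11 are relatives whose first C2 domain lacks a residue needed to bind calcium. Syt4 had the tightest wild-type values of the 36, with a coefficient of variation of 1.01%, and a log2 fold change of 0.03 (95% confidence interval -0.13 to 0.19). Syt11 was at 858, 831 and 949 CPM in wild type and 989.8, 894 and 950.1 CPM in the knockout, and its log2 fold change was 0.10 (-0.08 to 0.28). Relative to Syt11, the most abundant of the 6 by counts, Syt2 was 0.0584, 0.0687 and 0.0609 in the wild-type libraries and 0.109, 0.1004 and 0.0727 in those of the knockout, and Syt5 was 0.188, 0.168 and 0.191 in the wild-type libraries and 0.121, 0.142 and 0.155 in those of the knockout. Neither ratio overlapped between the groups, and the knockout was above for Syt2 and below for Syt5. The ratio of Syt2 to Syt1 did overlap, at 0.0596, 0.0780 and 0.0771 in the wild-type libraries and 0.124, 0.116 and 0.0751 in those of the knockout.

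Complexins bind the assembled SNARE bundle. Cplx1 (chr5:108666420-108697893, minus strand), which is known to prevail in inhibitory and in brainstem neurons, stood at 268, 233 and 224 CPM in wild-type replicates 1 to 3 and 461, 303 and 297 CPM in knockout replicates 1 to 3. The groups did not overlap, and knockout replicate 1 was far above the other two. The mean was 1.46-fold that of wild type, with a log2 fold change of 0.55 ± 0.183 (SE), a 95% confidence interval of 0.11 to 0.99 and an adjusted p of 0.27 in edgeR. Cplx2, the form that prevails in excitatory forebrain neurons, stood at 404, 308 and 348 CPM in wild type and 397, 322 and 376 CPM in the knockout, with overlapping groups and a log2 fold change of 0.05 (95% confidence interval -0.20 to 0.29). Cplx1 to Cplx2 was 0.664, 0.757 and 0.645 in the wild-type libraries and 1.16, 0.941 and 0.791 in those of the knockout, so the lowest knockout ratio exceeded the highest wild-type ratio. Cplx3, a complexin of retinal ribbon synapses and of some cortical neurons, had only 45, 70 and 92 counts in the wild-type libraries, against 65, 49 and 57 in those of the knockout. Its log2 fold change was -0.36 ± 0.269 (SE), at an adjusted p of 0.675 in edgeR, and its 95% confidence interval of -0.95 to 0.24 was the widest of the 36.

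**Figure D3:**
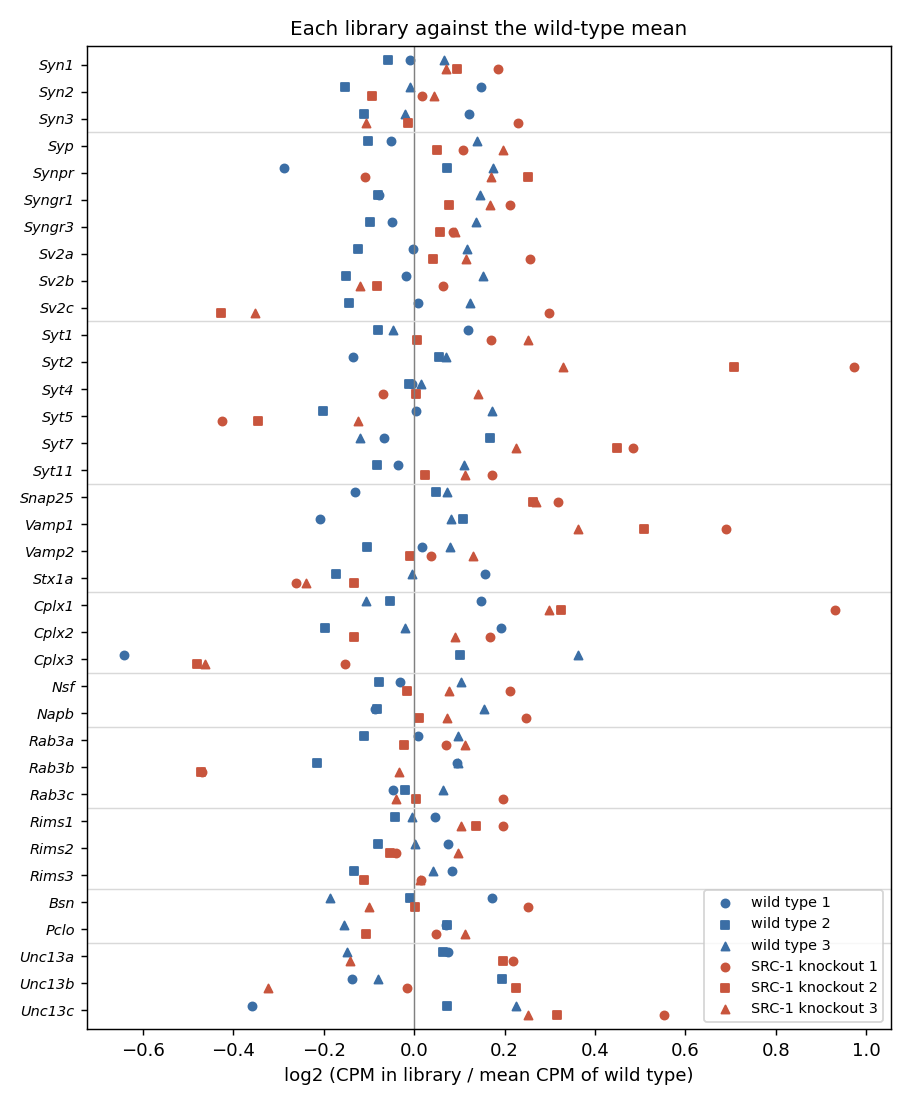
Each library's level of each of the 36 genes as the log2 of its CPM over the wild-type mean, with marker shape for the replicate number (blue, wild type; red, SRC-1 knockout). Syt2, Cplx1 and Vamp1 reach furthest to the right, in knockout replicate 1 most of all, and Cplx3 has the most scattered wild-type points.

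Genes of the vesicle coat and membrane had log2 fold changes between -0.12 and 0.15. Synapsins tie vesicles to each other and to actin. Syn1 (chrX:20726750-20787157, minus strand) stood at 355, 343 and 374 CPM in wild type and 407, 382 and 376 CPM in the knockout, and the groups did not overlap, although the lowest knockout and highest wild-type libraries nearly met. Its log2 fold change was 0.12 ± 0.07 (SE), at an adjusted p of 0.551 in edgeR. Syn2 (-0.01, 95% confidence interval -0.20 to 0.18) and Syn3 (0.04, -0.17 to 0.26) had overlapping groups.

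Among the 7 membrane proteins, 5 log2 fold changes were positive and 2 negative, from -0.12 to 0.15, and 0 had groups that did not overlap. Syngr1 encodes synaptogyrin-1, a vesicle protein that spans the membrane several times, and stood at 500.4, 499 and 584 CPM in wild type and 611, 557 and 593 CPM in the knockout. Wild-type replicate 3 lay within the knockout range, and the log2 fold change was 0.15 ± 0.084 (SE), at an adjusted p of 0.499 in edgeR. Sv2a, the vesicle glycoprotein that binds the antiseizure drug levetiracetam, stood at 696, 640.0 and 756 CPM in wild type and 833, 718 and 755 CPM in the knockout, with a log2 fold change of 0.14 ± 0.089 (SE) and an adjusted p of 0.581 in edgeR. Syp (synaptophysin, 0.12), Synpr (synaptoporin, 0.11), Syngr3 (0.08), Sv2b (-0.04) and Sv2c (-0.12) completed the group on the log2 scale. Sv2c had the least even knockout libraries of the 36, at 118, 106 and 128 CPM in wild type and 144, 87.3 and 91.9 CPM in the knockout. Its log2 fold change was -0.39 without knockout replicate 1 and -0.02 without knockout replicate 3.

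Sv2b to Sv2a was 0.143, 0.142 and 0.149 in the wild-type libraries and 0.127, 0.133 and 0.123 in those of the knockout, below wild type in all 3 knockout libraries. Syngr3 to Syngr1 was 0.394, 0.381 and 0.384 in the wild-type libraries and 0.354, 0.381 and 0.366 in those of the knockout, and here the groups stayed apart only in the fourth decimal place. In all, 22 ratios of family members were compared in 11 families, each gene against the family's most abundant gene by counts in wild type, plus Syt2 against Syt1. The knockout was above in 3, below in 3 and overlapped in 16. With 3 libraries against 3, the exact two-sided permutation test cannot go below p = 0.1, which each of these 6 ratios reached, and after adjustment over the 22 ratios the lowest p was 0.367.

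**Figure D4:**
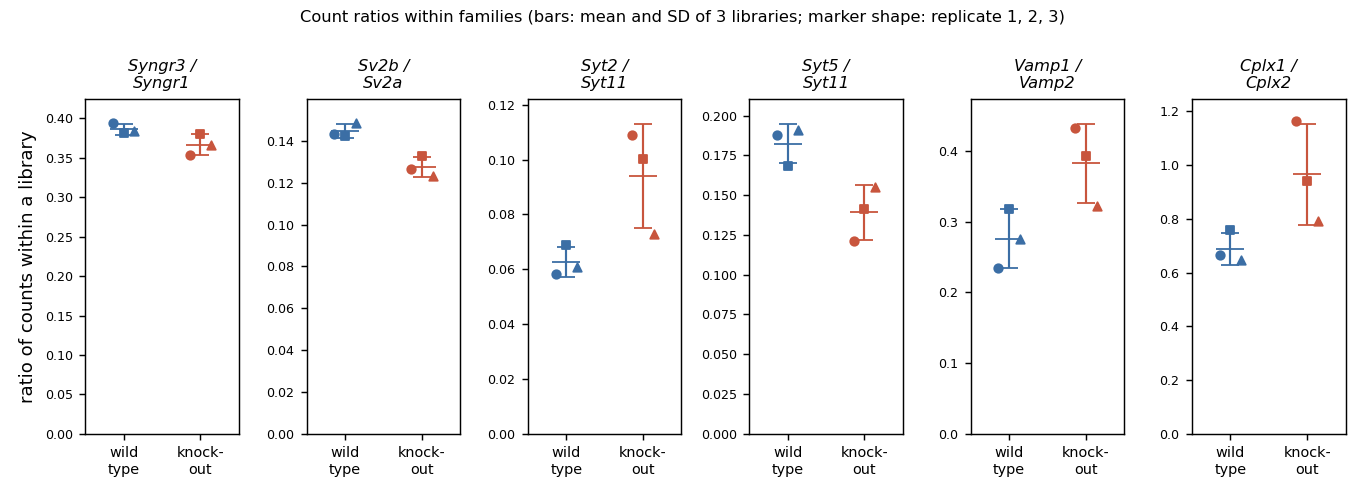
Ratios of counts within a library for the 6 family pairs whose groups do not overlap, with each library as a point (marker shape for the replicate number) and bars for the mean and SD of 3 libraries. Vamp1, Cplx1 and Syt2 are higher relative to their family's most abundant gene in the knockout, and Syt5, Sv2b and Syngr3 are lower.

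None of the 3 Rab3 genes had groups that did not overlap. Rab3 proteins are small GTPases of the vesicle that bind RIM. Rab3b stood at 73.8, 59.5 and 73.9 CPM in wild type and 49.9, 49.8 and 67.4 CPM in the knockout, with knockout replicate 3 inside the wild-type range. Its log2 fold change was -0.31 ± 0.139 (SE), at an adjusted p of 0.406 in edgeR. Rab3a had a log2 fold change of 0.05 (95% confidence interval -0.12 to 0.23) and Rab3c one of 0.06 (-0.13 to 0.24).

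RIM proteins link Rab3, Munc13 and calcium channels. Rims1 (chr1:22356196-22845239, minus strand) stood at 112, 105 and 108 CPM in wild type and 124, 119 and 117 CPM in the knockout, and the groups did not overlap. The spread within its groups was small, and the log2 fold change was 0.15 ± 0.062 (SE), at an adjusted p of 0.349 in edgeR. Rims2 (0.00, 95% confidence interval -0.15 to 0.16) and Rims3 (-0.03, -0.20 to 0.15) overlapped between the groups. So did the large scaffolds of the active zone, Bsn (bassoon, 0.06, -0.20 to 0.31) and Pclo (piccolo, 0.02, -0.17 to 0.21).

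Munc13 proteins open syntaxin and so prime vesicles. Unc13c (chr9:73386704-73915421, minus strand) encodes Munc13-3, known mainly from the cerebellum, and stood at 71.9, 97.0 and 108 CPM in wild type and 135, 115 and 109.7 CPM in the knockout. Wild-type replicate 1 was the lowest of all, while wild-type replicate 3 lay just under the lowest knockout library. The log2 fold change was 0.38 ± 0.155 (SE), at an adjusted p of 0.366 in edgeR. Unc13a, the main Munc13 of the forebrain, had a log2 fold change of 0.10 (95% confidence interval -0.13 to 0.33), and Unc13b one of -0.02 (-0.36 to 0.32). Of the recycling genes, Nsf had 0.09 (-0.10 to 0.29) and Napb, which encodes the adaptor beta-SNAP, 0.11 (-0.09 to 0.32).

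Extreme values were unevenly spread over the libraries. Knockout replicate 1 held the highest level for 18 of the 36 genes, whereas it held the highest for 16.8% of all genes tested. Wild-type replicate 2 held the lowest for 17 of the 36, against 15.8% of all genes. The summed level of the 36 was 12274, 11765 and 12858 CPM in wild type and 14042, 12746 and 13402 CPM in the knockout, so knockout replicate 2 was below wild-type replicate 3. Without knockout replicate 1, log2 fold changes were 0.31 for Cplx1, 0.53 for Syt2 and 0.44 for Vamp1. In that fit the median log2 fold change of the 36 was 0.046, with 23 positive and 13 negative.

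Gh, growth hormone, set the first library of each group apart. It stood at 11.7 CPM in wild-type replicate 1 and 6.67 CPM in knockout replicate 1, against 0 to 0.176 CPM in the other 4. With both first libraries left out, a choice made after seeing the data, the log2 fold change was 0.34 for Vamp1, 0.30 for Syt7, 0.46 for Syt2, 0.20 for Snap25 and 0.39 for Cplx1. For Unc13c it was 0.13, against 0.38 with all 6. None of the 36 passed in that fit (edgeR), in which 6 were at an unadjusted p under 0.05 in either direction, against 5.99% of all genes.

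Further genes of the vesicle cycle, in 5 lists that leave out the 36, held 0 calls in edgeR. Of 27 tested fusion and docking genes, 4 were higher and 2 lower at an unadjusted p under 0.05, and DESeq2 called 0. In this list the median was 0.040, with 18 positive values, and 6 genes (22.2%) had all knockout libraries above all wild-type ones and 1 all below, against 8.58% and 9.03% of all genes. Those with the lowest p were Syt3 (0.25 ± 0.074 SE), Vamp7 (0.30 ± 0.107 SE), Rph3a, a Rab3 effector (0.22 ± 0.078 SE), and Syt6 (-0.25 ± 0.089 SE), with adjusted p of 0.162, 0.25, 0.254 and 0.255 in edgeR. Of 16 active zone genes, 2 were higher and 1 lower at an unadjusted p under 0.05, and DESeq2 called 0. All knockout libraries lay above wild type for 2 of the 16 and below for 1. Here 9 were positive, with a median of 0.031, and Apba1, an adaptor that binds Munc18, had a log2 fold change of 0.19 ± 0.078 SE, at an adjusted p of 0.349 in edgeR.

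The 12 tested vesicle membrane genes had a median of 0.052, with 8 positive, 1 higher and 1 lower at an unadjusted p under 0.05, and DESeq2 called Sncb higher and Slc17a8 lower. Slc17a8, the vesicular glutamate transporter VGLUT3, stood at 4.44, 3.99 and 3.71 CPM in wild type and 1.74, 2.75 and 2.39 CPM in the knockout, without overlap, a log2 fold change of -0.82 ± 0.194 (SE), at an adjusted p of 0.0834 in edgeR. Sncb, beta-synuclein, stood at 220.1, 237 and 265 CPM in wild type and 319, 286 and 304 CPM in the knockout, also without overlap, a log2 fold change of 0.33 ± 0.083 (SE), at an adjusted p of 0.101 in edgeR. Of 22 endocytosis genes, which recover vesicle membrane after fusion, 15 were positive with a median of 0.039. All knockout libraries lay above wild type for 7 of the 22 and below for 0, against 8.58% and 9.03% of all genes. At an unadjusted p under 0.05, 4 of the 22 were higher and 0 lower, and DESeq2 called Bin1 higher. Bin1, an amphiphysin also made by oligodendrocytes (0.23 ± 0.066 SE), and Pacsin1, a dynamin-binding protein of neurons (0.23 ± 0.088 SE), had the lowest p of these, with adjusted p of 0.159 and 0.288 in edgeR. The 16 genes of the vesicle proton pump, which acidifies vesicles so that they can be filled, had a median of 0.022 with 12 of 16 (75.0%) positive, the same share as among the 36. Of these 16, 0 had groups that did not overlap, and 0 reached an unadjusted p under 0.05 or a DESeq2 call.

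**Figure D5:**
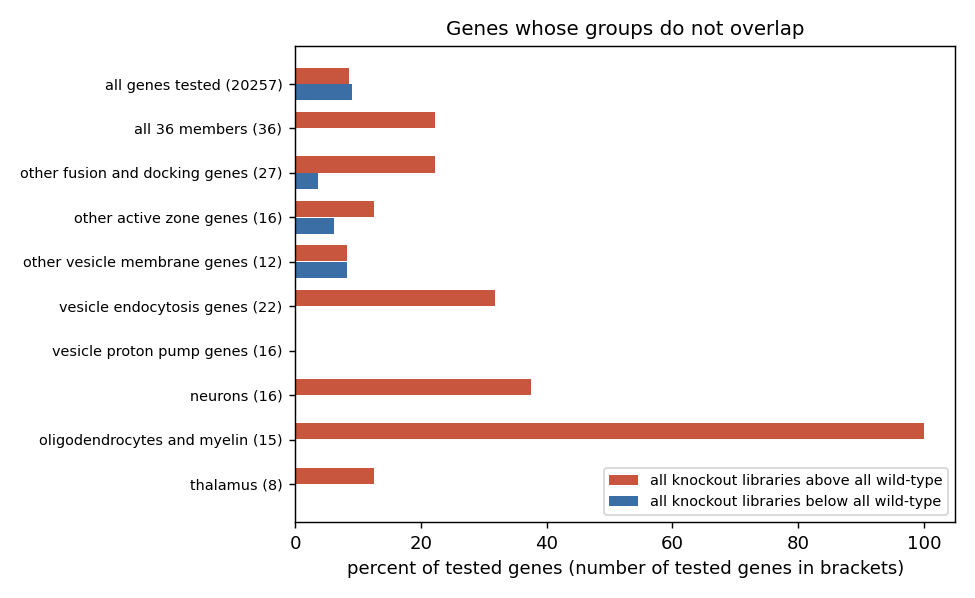
Percent of tested genes whose 3 knockout libraries all lie above (red) or all below (blue) the 3 wild-type libraries, for all genes tested, the 36 genes, the 5 lists of further vesicle genes and 3 marker lists, with the number of genes in brackets. The 36 genes stand at 22.2% above and 0 below, against 8.58% and 9.03% of all genes, and all 15 oligodendrocyte markers lie above.

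Markers of cell types also differed between the libraries. Of 16 markers of neurons outside the 36 genes, 0 passed in edgeR, 6 were higher at an unadjusted p under 0.05, and DESeq2 called 3 higher (Nefl, Nefm and Nefh). Of these markers 12 of 16 (75.0%) were positive, again the share found among the 36. The median log2 fold change was 0.12. Of the 16, 6 had all knockout libraries above all wild-type ones and 0 all below, against 8.58% and 9.03% of all genes. Their summed level was 9406, 9253 and 9141 CPM in wild type and 9795, 10350.5 and 9767 CPM in the knockout, so those groups did not overlap. Nefm (0.46 ± 0.094 SE) and Nefh (0.43 ± 0.096 SE), neurofilament subunits of large axons, had the lowest p, with adjusted p of 0.0541 and 0.0771 in edgeR. Exons shared with a gene on the other strand cover 33.3% of Nefm and 15.7% of Nefh.

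All 15 markers of oligodendrocytes and myelin were higher, 7 of them past the adjusted threshold, with a median of 0.72. Their summed level was 4645, 5971 and 5720 CPM in wild type and 10057, 8564 and 7532 CPM in the knockout. Knockout replicate 1 thus stood above replicate 2, and replicate 2 above replicate 3. The same order was found for 7 of the 8 release genes whose knockout libraries all lay above wild type, with Snap25 the exception. Among all 36 it was found for 12 (33.3%), and among all genes tested for 16.8%. The 8 were picked for their high knockout libraries, and the share among all genes that met the same rule was not counted. The part of the myelin markers in the values of the release genes was not tested.

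Of 18 markers of ependymal cells and tanycytes, 11 fell in edgeR and DESeq2 called 15 lower. All 18 were negative, with a median log2 fold change of -1.44. For 17 of them all knockout libraries lay below wild type, against 9.03% of all genes. The summed level of the 18 was 311 to 331 CPM in wild type and 135 to 156 CPM in the knockout. Markers of meningeal fibroblasts, at 73.6 to 339 CPM in wild type and 68.0 to 71.4 CPM in the knockout, included 1 that fell, Lum, and 4 that DESeq2 called lower. All 12 of these markers were negative, with a median of -1.63, and 4 had all knockout libraries below wild type. Of 9 pituitary markers tested 1 fell in edgeR, Pitx1, and 4 were called lower by DESeq2 (Cga, Lhb, Pitx1 and Tbx19). All knockout libraries lay below wild type for 5 of the 9 and above for 0, against 9.03% and 8.58% of all genes. Of the 9 tested, 7 were negative and 2 positive, with a median log2 fold change of -1.21. The summed level of all 11 on the list was 339 to 382 CPM in wild type and 309 to 337 CPM in the knockout. Cga and Pitx1 made up little of this sum, which therefore does not follow them. Cga stood at 4.51, 5.94 and 12.1 CPM in wild type and 0.357, 0.0252 and 0.0657 CPM in the knockout. Pitx1 stood at 0.907, 0.951 and 1.30 CPM in wild type and 0.0715, 0.0756 and 0.0877 CPM in the knockout. Gh, Prl, Fshb and Pou1f1 were at 0 in at least 1 library. The 8 thalamic markers were all positive with a median of 0.10, at 354 to 384 CPM in wild type and 383 to 406 CPM in the knockout. None of them passed in edgeR or DESeq2, and 2 were higher at an unadjusted p under 0.05. Among markers of the hypothalamus itself 0 of 16 passed in edgeR, 1 was higher and 2 lower at an unadjusted p under 0.05, and DESeq2 called Agrp lower. Of these 16, 10 were negative and 6 positive, with a median log2 fold change of -0.42. All knockout libraries lay below wild type for 3 of them and above for 0, against 9.03% and 8.58% of all genes. Their summed level overlapped, at 865 to 1054 CPM in wild type and 808 to 1023 CPM in the knockout. Of the other lists, 2 of 10 markers of oligodendrocyte precursors (Bcas1 and Enpp6) and 1 of 11 cortical markers (Tbr1) rose, and 1 of 11 striatal markers (Lrrc10b) fell. In edgeR 0 passed of 12 astrocyte, 12 microglial, 12 endothelial and 9 choroid plexus markers, with 5, 2, 2 and 4 at an unadjusted p under 0.05 and 2, 1, 1 and 3 called by DESeq2. The part of these lists in the values of the release genes was not tested.

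How reads were counted touches a few of the 36. Reads that fall where exons of 2 genes overlap were not counted for either gene, and strand was not used. Shared exons cover 26.1% of Napb, 8.51% of Rab3b, 8.39% of Sv2c, and at most 4.44% (Syn3) of any other gene of the 36. Within families, the longest run of identical bases between transcripts was 12 to 40 bases, with 40 for Syt2 and Syt5, 32 for Cplx1 and Cplx2, and 18 for Vamp1 and Vamp2.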

How the data were processed

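Total RNA of mouse hypothalamus was sequenced in 6 libraries, 3 wild type and 3 SRC-1 knockout, and each column was tied to its sample by a library code found in both the labels and the column name. The authors deposited raw, unnormalized counts, each the number of read pairs assigned to a gene. Alignment used STAR 2.7.10a, per the submitters' processing notes, and pairs were counted over RefSeq exons of mm39 (GRCm39) with featureCounts, version 2.0.0 per the file headers and 2.0.3 per those notes. The command in the file headers set no option for strand, multi-mapping or reads in several genes. Of the columns of values 0 were unused, and 0 rows lacked a gene name.

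The comparison used edgeR 4.0.16 (R 4.3.3) with TMM, the default filter by group (minimum count 10), robust quasi-likelihood F-tests, no covariate and Benjamini-Hochberg adjustment over 20257 genes. Levels are TMM-normalised CPM computed from the deposited counts. The biological coefficient of variation common to all genes was 12.3%. DESeq2 1.42.0, limma 3.58.1 and the other alternatives of the closing section were also run, and the scripts were tested on simulated data. Promoters and motifs were read from GRCm39 with GENCODE vM39 starts. Members and lists were chosen with earlier results of these data known. Named with full values were the members with the lowest p (up to 14), those under 2 CPM and those whose groups do not overlap, plus at most 4 genes per vesicle list and 2 per marker list. Protein sequences were not used here.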

Additional observations from a re-analysis of the deposited data

How the results depend on the processing

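The 169 genes changed over the whole table became 66 with library totals alone, 84 with a filter of at least 1 CPM in 3 libraries, 966 without a filter, 834 with DESeq2, 103 with limma-voom and 401 with its sample quality weights. Leaving out 1 library in turn gave 36 (without knockout replicate 1) to 260 (without knockout replicate 2), with 69 without wild-type replicate 1, and leaving out both first libraries gave 29. The number of the 36 release genes called higher, 0 in edgeR, was 2 without a filter, 4 with DESeq2, 3 with sample quality weights and 0 to 2 with 1 library left out. The number called lower was 1 without a filter. The causes of these shifts were not tested.

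For the 15 release genes followed in 15 alternatives, 212 of 225 values kept their direction and their side of the threshold, 13 newly passed and 0 reversed. These 15 were chosen for a low p, groups that did not overlap or a level under 2 CPM, which favours a steady direction. Some of the others reversed. The log2 fold change of Synpr went from 0.11 to -0.01 without wild-type replicate 1, and that of Bsn from 0.06 to -0.05 without knockout replicate 1. The number of positive values among the 36 ran from 23 to 30. The median over the 36 ran from 0.038 (library totals alone) to 0.102 (without wild-type replicate 3). Cplx3, under 100 counts in each library, is limited by depth.

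With the replicate number as a block, 155 genes were called, and 1 of the 36, Syt7, passed (adjusted p 0.0483, edgeR). The labels do not say that equal numbers pair the samples. Deviations of same-numbered libraries from their group means correlated at -0.21, 0.35 and 0.22, and those of differently numbered libraries at -0.41 to 0.26. Deviations within a group of 3 libraries depend on each other, so these correlations cannot decide whether the samples are paired.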

Other observations

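A few genes outside the lists, named after their values were seen, are given as values only. Esrra and Kcnc1 were looked up with them, and their values are not given here. Ppargc1a, which encodes the coactivator PGC-1 alpha, stood at 41.0, 50.5 and 50.7 CPM in wild type and 63.6, 61.6 and 60.7 CPM in the knockout, with a log2 fold change of 0.39 ± 0.087 (SE), at an adjusted p of 0.0711 in edgeR. Esrrg, which encodes an estrogen-related receptor, stood at 18.97, 20.7 and 20.9 CPM in wild type and 35.6, 28.6 and 26.3 CPM in the knockout, with a log2 fold change of 0.58 ± 0.109 (SE), at an adjusted p of 0.0471 in edgeR. The Esrrg call was lost with library totals alone (adjusted p 0.0839), limma-voom (0.0733) and the replicate block (0.101). It was also lost without wild-type replicate 1 (0.142), without knockout replicate 1 (0.122) and without both (0.374), and this gene was picked for its values. Kcna1, an axonal potassium channel, had a log2 fold change of 0.49 ± 0.162 (SE), at an adjusted p of 0.264 in edgeR, and its groups did not overlap. Pvalb, parvalbumin, stood at 3.90, 18.1 and 12.4 CPM in wild type and 15.96, 16.5 and 13.7 CPM in the knockout, with wild-type replicate 1 far below the other 5 libraries.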
